A study of Mus musculus with 3 samples.

Results

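The Hedgehog genes followed were the ligand gene Ihh, the receptor gene Ptch1, the signal transducer gene Smo, the transcription factor genes Gli1, Gli2 and Gli3, and Hhip, a surface antagonist of the ligands. They were chosen by symbol as 7 of the 32285 genes in the deposited matrices, and all 7 were found in each matrix. Levels were read in 3669 barcodes, a barcode being the droplet tag that stands for 1 cell, which had at least 10000 UMIs (unique molecular identifiers, counted transcripts) and at most 20% mitochondrial UMIs.

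The samples were mouse blastoids, blastocyst-like structures grown from stem cells, and the study applied single-cell RNA-seq to describe their lineages. All came from E14 mouse embryonic stem cells described as Nr1h2-activated, kept with LIF and with T0901317, a synthetic agonist of the liver X receptors. Aggregates in microwells received FGF4, heparin and CHIR99021 throughout, Y-27632 on the first day, and BMP4 with A83-01 thereafter, and blastoids were picked by hand on day 5. Droplet libraries of 3′ transcript ends were titled NrESC_Type_I, NrESC_Type_II and NrESC_Type_III, with 1 library per type and no untreated library, and a difference between types therefore could not be checked in replicates. The labels do not state what distinguishes the types. E14 is 1 cell line, and each library pooled an unstated number of blastoids.

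In the Hedgehog pathway a secreted ligand binds PTCH1, which otherwise holds SMO inactive; released SMO acts through the primary cilium on the GLI proteins. GLI1 is mainly an activator and GLI3 is mostly cleaved into a repressor when ligand is absent, and Ptch1, Gli1 and Hhip are themselves transcribed in response to the signal. In the early mouse embryo Ihh is known as the ligand gene of the primitive and visceral endoderm, and mesoderm next to it is a known recipient.

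Each barcode was placed in 1 of 4 states by CPM, a gene's UMIs scaled to a total of 1000000. A sum of at least 1000 CPM over the plasma carrier genes Ttr, Rbp4, Apoa1 and Apoa2 gave visceral endoderm, otherwise at least 100 CPM over Gata6, Sox17 and Gata4 gave early primitive endoderm (early PrE). Of the remainder, at least 800 CPM over the keratin genes Krt8, Krt18 and Krt19 gave trophectoderm (TE), and otherwise at least 150 CPM of Pou5f1 gave epiblast. Types I, II and III held 443, 563 and 19 visceral endoderm barcodes, 271, 376 and 45 early PrE, 208, 278 and 72 TE, and 351, 582 and 121 epiblast barcodes. A further 132, 193 and 15 barcodes met no threshold and are called unplaced. None of the 7 Hedgehog genes was used to place a barcode, and the state names stand for ranges of these sums rather than for cell types. Median depths of the barcodes used were 52224, 41491 and 71540 UMIs.

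Markers that the rule did not use were checked in their own state. All 5 further epiblast markers, 5 of 6 visceral endoderm markers and 5 of 7 TE markers were highest there in all 3 libraries. The TE marker Cdx2 was instead highest in visceral endoderm, at 18.9, 13.8 and 10.9 CPM in Types I, II and III against 12.5, 8.26 and 4.82 in TE. The TE marker Elf3 and the visceral endoderm marker Cubn were highest in early PrE in all 3 libraries. For early PrE this held for 2 of 4, since Dab2 was higher in visceral endoderm in all 3 libraries and Pdgfra in Types II and III. Parietal endoderm markers were high in both endoderm states (3721 to 5132 summed CPM against 102 to 482 in TE and epiblast). In Types I, II and III they summed to 5132, 4664 and 4672 CPM in early PrE, above the 3758, 3746 and 3721 CPM in visceral endoderm. The name early PrE therefore does not set these barcodes apart from parietal endoderm. The other 2 early PrE markers, Lama1 and Sox7, were highest in early PrE in all 3 libraries. Within 25% above and below the thresholds lay 74 and 78 barcodes for visceral endoderm, 27 and 55 for early PrE, 45 and 67 for TE, and 60 and 63 for epiblast.

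Type III stood apart in size and in shared barcode sequences. Of its 272 barcodes used, 161 (59.2%) had a sequence that also occurred in another library, against 58 (4.13%) in Type I and 26 (1.31%) in Type II, and 1 sequence was used in more than 1 library. Where a sequence was used in Type III, its depth there was a median of 62.7 times that in Type I and 60.3 times that in Type II. Calls of single members that change without these sequences are given beside the values they touch.

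By the reference annotation on GRCm38, all 7 genes are protein-coding loci of the following extents. Ihh (ENSMUSG00000006538) lies at chr1:74945315-74951672 on the minus strand and overlaps no other gene. Ptch1 (ENSMUSG00000021466) lies at chr13:63508328-63573598 on the minus strand and shares that strand with A930032L01Rik. Smo (ENSMUSG00000001761) lies at chr6:29735503-29761365 on the plus strand with Gm13717 on the same strand, and Gli3 (ENSMUSG00000021318) at chr13:15463235-15730026 on the plus strand with Gm48343. Gli1 (ENSMUSG00000025407) lies at chr10:127329882-127341974, Gli2 (ENSMUSG00000048402) at chr1:118834132-119053619 and Hhip (ENSMUSG00000064325) at chr8:79965851-80058006, all on the minus strand with overlapping genes only on the other strand. The sources used here do not say how reads shared by overlapping genes were counted, and the levels of Ptch1, Smo and Gli3 carry that uncertainty.

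The start regions of Ihh, Ptch1 and Gli3 are shown because the differences between states turn on these genes. Each run holds 250 bases before to 50 after the RefSeq start on GRCm38.p6, read 5′ to 3′ on the gene's strand, and capitals mark CCACCC or its reverse complement GGGTGG, the core of the GLI binding site. The windows are chr1:74951623-74951922 (minus strand), chr13:63565686-63565985 (minus strand) and chr13:15463473-15463772 (plus strand). Those of Ptch1 and Gli3 lie inside the loci given above, whose outermost 5′ ends, at 63573598 and 15463235, were not searched.
Ihh: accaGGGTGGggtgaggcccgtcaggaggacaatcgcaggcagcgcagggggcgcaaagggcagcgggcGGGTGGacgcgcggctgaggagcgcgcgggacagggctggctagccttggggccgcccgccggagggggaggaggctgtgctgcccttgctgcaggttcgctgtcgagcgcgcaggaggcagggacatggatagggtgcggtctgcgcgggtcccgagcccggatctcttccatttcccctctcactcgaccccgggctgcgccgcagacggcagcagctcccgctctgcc
Ptch1: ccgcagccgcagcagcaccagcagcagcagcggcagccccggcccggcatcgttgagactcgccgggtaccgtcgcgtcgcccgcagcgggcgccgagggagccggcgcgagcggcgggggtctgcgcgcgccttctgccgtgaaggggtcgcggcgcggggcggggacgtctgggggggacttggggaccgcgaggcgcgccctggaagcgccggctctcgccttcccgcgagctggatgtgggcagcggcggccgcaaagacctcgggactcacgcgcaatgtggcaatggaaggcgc
Gli3: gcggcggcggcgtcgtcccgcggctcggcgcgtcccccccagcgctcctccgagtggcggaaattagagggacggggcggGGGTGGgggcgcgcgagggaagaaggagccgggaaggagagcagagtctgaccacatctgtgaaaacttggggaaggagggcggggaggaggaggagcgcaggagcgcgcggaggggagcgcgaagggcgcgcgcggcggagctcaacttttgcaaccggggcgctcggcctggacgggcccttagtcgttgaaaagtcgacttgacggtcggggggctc
The core occurred 2 times in the Ihh window, 0 times in that of Ptch1 and 1 time in that of Gli3, and 1 time each in those of Smo and Hhip and 2 times in that of Gli2. Of all 32851 promoters in the table, 31.5% held it on either strand. The full GLI site GACCACCCA, which contains the core, was in none of the 6 members' windows and in 0.253% of all promoters. The letters AGATAA, searched because GATA factors mark endoderm and bind them, were in none of the 6 and in 11.2% of all promoters. The 6 windows held 67.3% to 76.3% G and C bases, against a median of 52.7% over all promoters. The shares over all promoters are therefore no matched background for GC-rich or AT-rich letters. A match or its absence describes only these letters in this window.

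Ihh was an endoderm transcript. In visceral endoderm it stood at 60.1, 56.4 and 67.0 CPM in Types I, II and III, and in early PrE at 45.2, 42.8 and 41.2 CPM. In TE it stood at 2.00, 0.857 and 0 CPM, in epiblast at 0.967, 1.01 and 0.538 CPM, and in unplaced barcodes at 0.679, 0.849 and 1.95 CPM. Every endoderm value lay above 40 CPM and every other value below 3 CPM, so the groups did not overlap. The 0 in Type III TE allows up to 0.482 CPM, the level of 3 UMIs.

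State differences were tested with edgeR on UMIs summed per library and state, with the library as a block, and a gene is called at a Benjamini-Hochberg adjusted p under 0.05 over all 13721 genes tested. The 3 libraries stand in for replicates, and the Type III visceral endoderm sum of 19 barcodes was left out of the fit. Ihh was higher in visceral endoderm than in epiblast by 5.77 ± 0.226 (SE) on the log2 scale (54.7-fold, adjusted p = 6.22e-11), and higher than in TE by 5.87 ± 0.248 (adjusted p = 2.31e-10). Early PrE exceeded epiblast by 5.40 ± 0.224 (adjusted p = 1.26e-10) and TE by 5.49 ± 0.246 (adjusted p = 4.57e-10). Higher levels were seen in 3 of 3 libraries in each of these comparisons. State differences given beside an adjusted p are on the log2 scale throughout. The log2 fold changes of Ihh varied with the settings while all 4 calls held. With epiblast tested first, the log2 fold changes over epiblast were 3.73 in visceral endoderm and 3.30 in early PrE, and thinned to 10000 UMIs per barcode 5.08 and 4.65. Over TE they were 4.48 and 4.35 with doubled state thresholds, 4.41 and 3.98 thinned, and 6.72 and 6.38 without Type I, and 6.62 in visceral endoderm with halved thresholds.

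Most genes differ between these lineages, so a call is common. Across all genes tested, 74.1% were called in visceral endoderm over epiblast, 70.8% in early PrE over epiblast, 63.8% in visceral endoderm over TE and 59.8% in early PrE over TE. TE over epiblast gave 58.6% and visceral endoderm over early PrE 19.8%. With no scaling beyond the total, TE over epiblast had 6350 genes called higher and 2277 lower in place of 3802 and 4241, and its median log2 fold change moved from -0.03 to 0.30. Visceral endoderm over TE then had 3626 and 5391 in place of 4539 and 4218, and early PrE over TE 3317 and 5226 in place of 4301 and 3904, with medians of -0.16. No called member changed its direction with the scaling. Of the 7 Hedgehog genes 6 were tested. In visceral endoderm over epiblast 2 were called higher and 4 lower, where 37.7% of all genes were called higher and 36.4% lower. Early PrE over epiblast had the same counts, beside 36.5% and 34.3% of all genes. In visceral endoderm over TE 1 was called higher and 4 lower (all genes 33.1% and 30.7%), and so in early PrE over TE (31.3% and 28.5%). Visceral endoderm over early PrE had 1 and 1 (10.3% and 9.50%), and TE over epiblast 2 and 1 (27.7% and 30.9%). Without the shared barcode sequences, visceral endoderm over TE and over early PrE had 2 called higher each. Gli1 and Gli2 passed the filter on low counts only through states in which they were higher, so these counts do not set the members apart from the background shares.

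**Figure D1:**
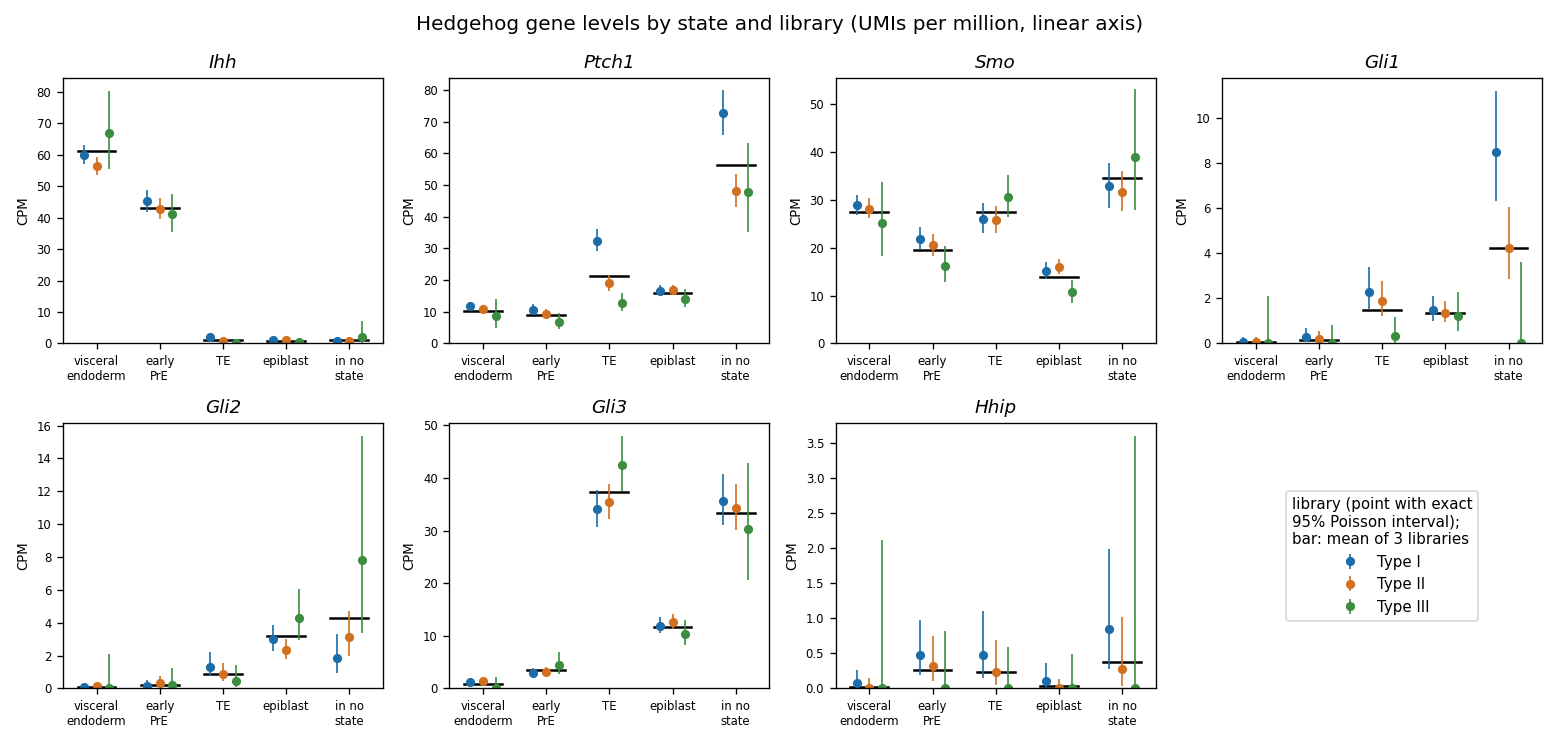
Level of each Hedgehog gene in CPM (y axis, linear) in the 4 states and in unplaced barcodes (x axis, "in no state"), 1 point per library with its exact 95% Poisson interval and a bar for the mean of 3 libraries. Ihh sits between 41.2 and 67.0 CPM in the endoderm states and at most at 2.00 CPM elsewhere, while Gli3 is highest in TE and in unplaced barcodes.

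The difference in Ihh between the 2 endoderm states was smaller. Visceral endoderm averaged 61.1 ± 5.37 CPM and early PrE 43.0 ± 2.00 CPM (SD, n = 3 libraries). The ratio was 1.33 in Type I (95% Poisson interval 1.21 to 1.46), 1.32 in Type II (1.20 to 1.45) and 1.62 in Type III (1.28 to 2.06), above 1 in 3 of 3 libraries. The edgeR fold was 0.38 ± 0.148 on the log2 scale and missed the threshold (adjusted p = 0.0941). It passed in 8 of 20 alternative settings, with an adjusted p of 0.00624 without the shared barcode sequences and of 1.26e-05 with halved state thresholds, and it was 0.048 (adjusted p = 0.979) at its smallest, with DESeq2. Poisson intervals cover counting error only.

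Ihh was also read in bins of the carrier sum inside endoderm. Bins under 1000 CPM hold the early PrE barcodes and those above hold visceral endoderm, so a trend over all bins in part restates the state difference. In Type I it stood at 34.4 CPM in endoderm barcodes with a carrier sum under 100 CPM and at 51.4 CPM at 100 to under 1000 CPM. It was 62.8 CPM at 1000 to under 3000, 59.2 CPM at 3000 to under 10000 and 54.2 CPM at 10000 CPM or more. Type II gave 32.6, 51.1, 54.5, 59.8 and 51.4 CPM over the same bins. In both libraries Ihh was lowest in the bin with the fewest carrier transcripts, with intervals (29.7 to 39.7 and 28.5 to 37.1 CPM) below those of every other bin, and it was no higher at 10000 CPM or more than at 3000 to under 10000 CPM. Type III had 37.6 CPM in the lowest bin and 50.2 CPM in the next, and 19 barcodes above them. Gli3 ran the other way, from 4.44 and 5.00 CPM in the lowest bin of Types I and II to 0.592 and 0.487 CPM in the highest, which held 2 Gli3 UMIs in each library. Smo was also lowest in the first bin, at 17.2 and 15.0 CPM, while Ptch1 kept between 8.53 and 13.5 CPM.

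**Figure D2:**
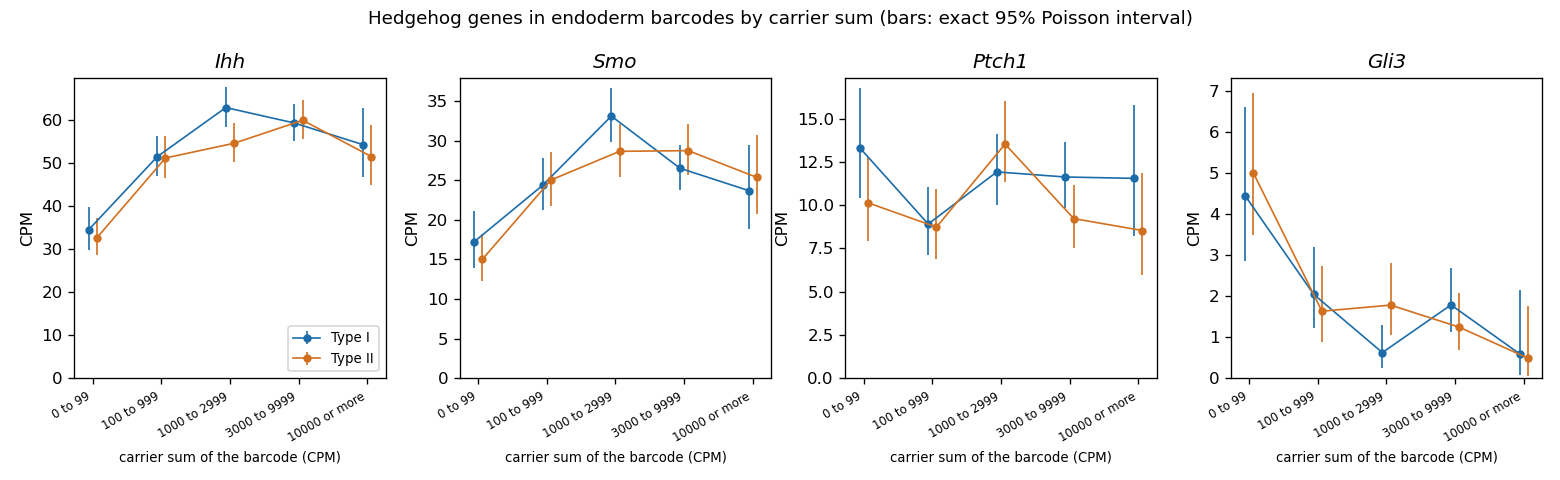
Ihh, Smo, Ptch1 and Gli3 in CPM (y axes) in endoderm barcodes of Types I and II, binned by the summed level of Ttr, Rbp4, Apoa1 and Apoa2 (x axis, CPM), as points with exact 95% Poisson intervals joined by lines. Ihh and Smo are lowest in the first bin and Gli3 is highest there, at 4.44 and 5.00 CPM.

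Per barcode, Ihh was widespread but shallow. After each barcode was thinned to 10000 UMIs, 424 of 1025 visceral endoderm barcodes held an Ihh UMI (41.4%, exact binomial 95% interval 38.3% to 44.5%) and 211 of 692 early PrE barcodes (30.5%, 27.1% to 34.1%). In epiblast, which should lack the gene, it was 12 of 1054 (1.14%), in TE 9 of 558 (1.61%) and in unplaced barcodes 2 of 340 (0.588%). Without thinning the shares were 83.9% in visceral endoderm, 67.2% in early PrE and 4.36% in epiblast. Median depths in visceral endoderm and epiblast were 54589 and 57747 UMIs in Type I, 40808 and 46588.5 in Type II, and 92031 and 59991 in Type III. No order is drawn among the few Ihh UMIs in TE, epiblast and unplaced barcodes, and their source was not tested. For each 100 Ttr UMIs, epiblast held 6.42, 4.66 and 12.1 Ihh UMIs, TE 11.8, 3.67 and 0, visceral endoderm 2.42, 1.96 and 2.29, and early PrE 27.3, 27.7 and 49.5. Ttr belongs to the genes that placed the barcodes. The order of these ratios therefore follows in part from the rule, and nothing is drawn from it.

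The other ligand genes were near 0. Shh had at most 1.14 CPM in any state and library, with 0 UMIs in epiblast of all 3 libraries, and Dhh averaged 1.37 ± 2.02 CPM in TE (SD, n = 3), where 1 library held 3.69 CPM. Neither passed the filter on low counts. Scube2, whose product helps to release lipid-bearing ligand, had its highest levels in endoderm, at 19.6 ± 1.63 CPM in visceral endoderm, 25.4 ± 4.14 in early PrE, 1.41 ± 0.540 in TE and 0.281 ± 0.137 in epiblast. Visceral endoderm exceeded epiblast by 5.75 ± 0.234 for Scube2 on the log2 scale. Without its endoderm sums Scube2 would not have passed the filter on low counts, so this fold is a description with no test. Hhat, the acyltransferase that lipidates the ligand, was higher in visceral endoderm than in epiblast by 2.51 ± 0.549 (adjusted p = 0.000945) and than in early PrE by 1.84 ± 0.527 (adjusted p = 0.0255). Disp1, the ligand exporter, was higher in visceral endoderm than in epiblast by 0.75 ± 0.222 (adjusted p = 0.00752) and passed no other comparison. Scube3, related to Scube2, went lower in visceral endoderm against epiblast (log2 fold change -1.87 ± 0.371). Without its TE and epiblast sums Scube3 would not have passed the filter, so this fold too is a description with no test.

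Ptch1, the receptor gene, was lower in endoderm than in the other states. It stood at 11.7, 10.8 and 8.58 CPM in visceral endoderm and at 10.5, 9.36 and 6.68 CPM in early PrE. In epiblast it stood at 16.7, 16.8 and 14.1 CPM, in TE at 32.4, 18.9 and 12.8 CPM, and in unplaced barcodes at 72.7, 48.1 and 47.8 CPM. Every endoderm value was below every value of the other states, and every unplaced value was above all others.

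Ptch1 fell in visceral endoderm against epiblast (log2 fold change -0.80 ± 0.174, adjusted p = 0.000854) and in early PrE against epiblast (-0.98 ± 0.178, adjusted p = 0.000223). Against TE it fell by 0.91 in visceral endoderm (-0.91 ± 0.177, adjusted p = 0.000486) and by 1.09 in early PrE (-1.09 ± 0.181, adjusted p = 0.000146). The first of these 4 calls was lost when each barcode was thinned to 10000 UMIs (-0.39, adjusted p = 0.0844) and without the library block (-0.65, adjusted p = 0.0501). The difference between the endoderm states missed the threshold (0.18 ± 0.192, adjusted p = 0.559). TE over epiblast gave 0.11 ± 0.159 (adjusted p = 0.584), but 0.43 with no scaling beyond the total (adjusted p = 0.0288) and -0.30 without Type I (adjusted p = 0.126).

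The level of Ptch1 in TE depended on the library. It was 32.4 CPM in Type I (95% Poisson interval 29.1 to 36.0), 18.9 in Type II (16.6 to 21.5) and 12.8 in Type III (10.2 to 16.0), and no 2 of these intervals overlapped. The TE to epiblast ratio was 1.94 in Type I (1.66 to 2.27), 1.13 in Type II (0.962 to 1.32) and 0.909 in Type III (0.671 to 1.23). The 5 streak mesoderm markers summed to 24.3, 44.6 and 3.69 CPM in the TE barcodes of the 3 libraries, and none was at 0; their part in the Ptch1 level was not tested. With 1 library per type the type and the library cannot be told apart.

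Smo, the transducer gene, was present in every state, with the lowest levels in epiblast. It stood at 28.8, 28.2 and 25.2 CPM in visceral endoderm, 21.7, 20.5 and 16.3 in early PrE, 26.0, 25.8 and 30.5 in TE, and 15.2, 15.98 and 10.6 in epiblast. Unplaced barcodes held 32.8, 31.6 and 39.0 CPM. Epiblast was the lowest state in 3 of 3 libraries. Against epiblast it was higher by 0.78 ± 0.119 in visceral endoderm (adjusted p = 4.28e-05), by 0.59 ± 0.118 in TE (adjusted p = 0.000730) and by 0.32 ± 0.120 in early PrE (adjusted p = 0.0305), and visceral endoderm exceeded early PrE by 0.47 ± 0.121 (adjusted p = 0.0154). Thinned to equal depth per barcode, TE over epiblast was 0.0066 (adjusted p = 0.985), visceral endoderm over early PrE 0.066 (adjusted p = 0.850) and early PrE over epiblast 0.36 (adjusted p = 0.0687), so these 3 calls were lost, and the cause was not tested. The calls of early PrE over epiblast and of visceral endoderm over early PrE were also lost without Type I (adjusted p = 0.194 and 0.148) and without Type II (adjusted p = 0.106 and 0.330). Visceral endoderm over epiblast was called in all 20 settings. Visceral endoderm over TE was 0.20 ± 0.122 (adjusted p = 0.171), and it was called without the shared barcode sequences (0.32, adjusted p = 0.00975).

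Gli1, the activator and target gene, was nearly absent from endoderm. The UMI counts were 2, 2 and 0 in visceral endoderm and 4, 3 and 0 in early PrE, against 24, 24 and 2 in TE and 29, 36 and 9 in epiblast. Levels were 2.28, 1.87 and 0.321 CPM in TE, 1.48, 1.35 and 1.21 CPM in epiblast, and 8.49, 4.25 and 0 CPM in unplaced barcodes (50, 30 and 0 UMIs). The endoderm values of Types I and II, at most 0.272 CPM, were below all 4 of the other 2 states' values in those libraries, while Type III was too small to compare. Its zeros allow up to 1.72 CPM in visceral endoderm, 0.668 in early PrE and 2.92 in unplaced barcodes.

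Gli1 in visceral endoderm was 0.0492 times the epiblast level in Type I (95% Poisson interval 0.00569 to 0.195) and 0.0581 times in Type II (0.00677 to 0.226). The edgeR log2 fold changes of visceral endoderm were -4.40 ± 0.591 against epiblast and -4.32 ± 0.610 against TE, and those of early PrE -2.97 ± 0.540 and -2.90 ± 0.558. Gli1 passed the filter on low counts through TE and epiblast alone, so these 4 folds are a description with no test. TE against epiblast missed the threshold (-0.08 ± 0.374, adjusted p = 0.873), and this sign turned in 6 of 17 settings, among them the one without the shared barcode sequences (0.26, adjusted p = 0.532). Thinned, 0 of 1025 visceral endoderm barcodes held a Gli1 UMI, while 4 did without thinning (0.390%). The thinned shares were 11 of 1054 in epiblast (1.04%), 16 of 558 in TE (2.87%) and 17 of 340 unplaced (5.00%), and without thinning 5.60%, 6.81% and 15.9%.

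Gli2, whose product is the main initial activator in mouse embryos, was an epiblast transcript among the 4 states. It stood at 3.00, 2.33 and 4.31 CPM in epiblast, 1.33, 0.857 and 0.482 in TE, 0.136, 0.321 and 0.223 in early PrE, and 0.0727, 0.157 and 0 in visceral endoderm. Unplaced barcodes held 1.87, 3.11 and 7.80 CPM. These groups did not overlap between epiblast and any other state. The edgeR log2 fold changes against epiblast were -1.997 ± 0.375 in TE, -3.79 ± 0.480 in early PrE and -4.72 ± 0.526 in visceral endoderm. Gli2 passed the filter on low counts through epiblast and TE alone, and would have passed through epiblast by itself, so these folds are a description with no test. Counts were low, with 6 Gli2 UMIs in all visceral endoderm and 8 in all early PrE.

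Gli3, the main source of GLI repressor, separated all 4 states. It stood at 34.1, 35.5 and 42.6 CPM in TE, 11.96, 12.7 and 10.4 in epiblast, 2.92, 3.14 and 4.45 in early PrE, and 1.16, 1.33 and 0 in visceral endoderm. Unplaced barcodes held 35.7, 34.2 and 30.2 CPM, as much as TE. No 2 of the 4 states overlapped. TE exceeded epiblast by 1.29 ± 0.107 (2.45-fold, adjusted p = 2.34e-07). Visceral endoderm was lower than TE by -4.67 ± 0.164 (log2, adjusted p = 3.91e-11), than epiblast by -3.38 ± 0.171 (adjusted p = 7.41e-10) and than early PrE by -1.35 ± 0.224 (adjusted p = 0.000916). The last call was lost with doubled state thresholds (-0.65, adjusted p = 0.135) and without Type II (-1.46, adjusted p = 0.0766). Thinned, 141 of 558 TE barcodes held a Gli3 UMI (25.3%), against 112 of 1054 epiblast (10.6%), 24 of 692 early PrE (3.47%) and 13 of 1025 visceral endoderm barcodes (1.27%).

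Hhip, the antagonist, had the fewest UMIs of the 7 genes. Its counts were 2, 0 and 0 UMIs in visceral endoderm, 7, 5 and 0 in early PrE, 5, 3 and 0 in TE, 2, 0 and 0 in epiblast, and 5, 2 and 0 in unplaced barcodes. It did not pass the filter on low counts and was not tested across libraries. The level in visceral endoderm was 0.153 times that in early PrE in Type I (95% Poisson interval 0.0155 to 0.803), and in Type II 0 UMIs stood against 5.

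**Figure D3:**
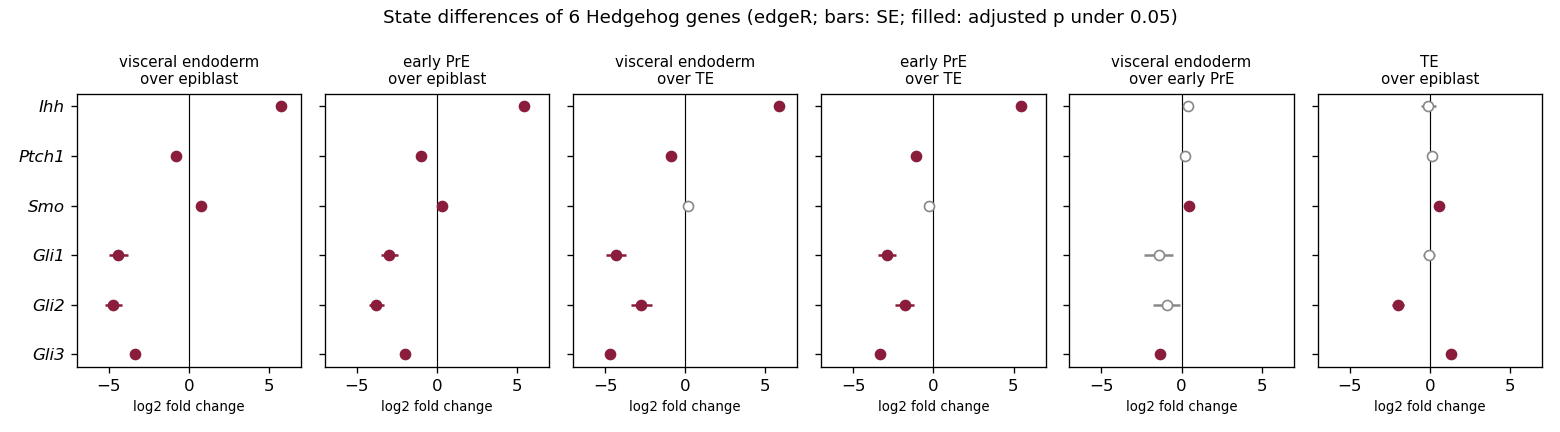
Log2 fold change (x axis) of the 6 tested Hedgehog genes (rows) in the 6 comparisons of states, as points with bars for the standard error from edgeR, filled where the adjusted p is under 0.05. Ihh lies beyond 5 in the 4 comparisons of an endoderm state with TE or epiblast, where Ptch1, Gli1, Gli2 and Gli3 lie below 0. Filled points of Gli1 and Gli2 are a description with no test, since both passed the filter on low counts only through states in which they were higher.

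Placing the values side by side, the endoderm states held the ligand transcript together with Smo and a low level of Ptch1, with Gli1, Gli2 and Gli3 low. TE and epiblast held Ptch1, Smo and Gli3, with Gli1 at 0.321 to 2.28 CPM and Ihh at 0 to 2.00 CPM. Ihh and Ptch1 occurred together in single endoderm barcodes: after thinning, 48 of 1025 visceral endoderm barcodes held both (4.68%), and 19 of 692 early PrE barcodes (2.75%). Of the same barcodes 424 and 211 held Ihh and 108 and 61 held Ptch1. Whether the pairs exceed what these separate shares would give was not tested. Ptch1 and Gli1 could hardly occur together in endoderm, where 0 visceral endoderm and 3 early PrE barcodes held a thinned Gli1 UMI. They did so in 6 of 558 TE (1.08%), 5 of 1054 epiblast (0.474%) and 10 of 340 unplaced barcodes (2.94%). Whether RNA from other cells adds to such pairs was not tested.

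In Types I and II the highest Ptch1 and Gli1 levels were in unplaced barcodes. Since mesoderm is a known recipient, barcodes of epiblast or of no state with at least 100 CPM over the streak genes T, Fgf8, Mixl1 and Mesp1 were taken apart, giving 41, 90 and 6 barcodes. Ptch1 stood there at 68.3, 59.6 and 39.8 CPM, against 16.3, 16.3 and 13.6 CPM in the epiblast barcodes without streak genes, and no intervals overlapped within a library. Gli1 stood at 6.48, 4.48 and 7.02 CPM against 1.43, 1.22 and 0.833 CPM, although the Type III value rests on 3 UMIs. Gli3 stood at 23.9, 31.6 and 44.4 CPM against 11.7, 12.6 and 9.30 CPM. Ihh had 1, 5 and 0 UMIs there.

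Ptch1 was high in the unplaced barcodes without streak genes as well, at 67.2, 34.2 and 47.4 CPM in 102, 133 and 13 barcodes, with Gli1 at 8.39, 4.06 and 0 CPM. These barcodes held the mesenchymal gene Vim at 196, 124 and 436 CPM, against 12.9, 18.0 and 19.3 CPM in epiblast without streak genes. They held Hand1, a gene of extraembryonic mesoderm and trophoblast, at 25.4, 10.5 and 59.5 CPM, against 0.688, 0.550 and 0.278 CPM. TE held Hand1 at 30.8, 31.8 and 43.4 CPM, more than these barcodes in Types I and II, so the gene does not set them apart from TE. Bmp4, a Hedgehog target in other tissues, stood at 78.3, 111 and 105 CPM in the streak-gene barcodes and at 18.9, 21.4 and 31.0 CPM in epiblast without them. The unplaced barcodes without streak genes lay between, at 53.8, 32.5 and 81.4 CPM. Foxf1, another such target, had 12, 26 and 0 UMIs in the streak-gene barcodes and 17, 6 and 0 UMIs in the unplaced barcodes without streak genes. These groups were formed from other genes than the Hedgehog genes, but no cell type is given to them and they were not tested.

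**Figure D4:**
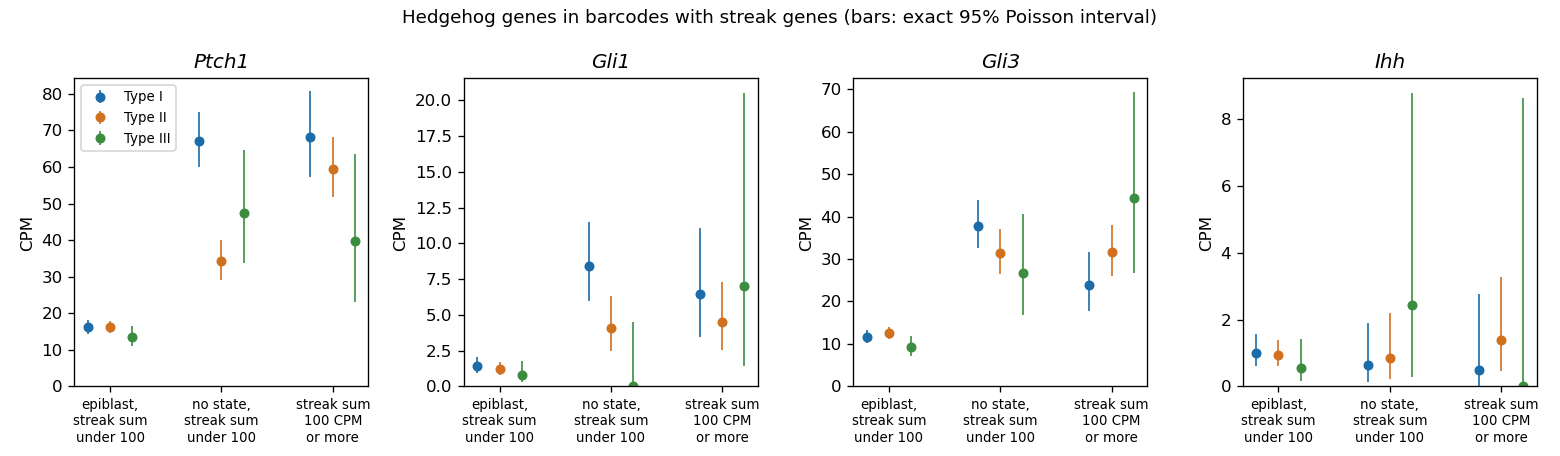
Ptch1, Gli1, Gli3 and Ihh in CPM (y axes) per library, with exact 95% Poisson intervals, in epiblast barcodes with a streak gene sum under 100 CPM, in unplaced barcodes under 100 CPM, and in epiblast or unplaced barcodes at 100 CPM or more (x axis). Ptch1 is 39.8 to 68.3 CPM in the last group and 13.6 to 16.3 CPM in the first, and Ihh stays below 3 CPM in all.

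Among the other genes of the pathway, 46 were listed and 38 tested. In visceral endoderm over epiblast 15 were higher and 14 lower with a median log2 fold change of 0.16, beside 0.02 over all genes. In early PrE over epiblast it was 14 and 13 (median 0.31), in visceral endoderm over TE 12 and 17 (-0.11), in early PrE over TE 10 and 13 (-0.16), in visceral endoderm over early PrE 3 and 6 (-0.04), and in TE over epiblast 14 and 8 (0.27). Medians over all genes lay between -0.03 and 0.03. In visceral endoderm over TE 44.7% of the tested list was lower, beside 30.7% of all genes, and in TE over epiblast 36.8% was higher and 21.1% lower, beside 27.7% and 30.9%. No difference of the list from all genes was tested.

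Co-receptors divided by state. Gpc3, a glypican that binds ligand and competes with PTCH1, averaged 1324 ± 273 CPM in visceral endoderm, 458 ± 7.99 in early PrE, 63.0 ± 24.0 in TE and 43.6 ± 2.28 in epiblast (SD, n = 3). Lrp2, an endocytic receptor that binds Hedgehog ligand in the brain, averaged 279 ± 86.7, 350 ± 69.8, 46.2 ± 7.73 and 12.8 ± 4.27 CPM in the same order. Visceral endoderm over epiblast gave 4.49 ± 0.181 for Gpc3 (adjusted p = 8.24e-11) and 3.98 ± 0.167 for Lrp2 (adjusted p = 1.20e-10). Cdon, a co-receptor that assists ligand binding, was highest in TE, at 5.82 ± 0.308 CPM, and visceral endoderm was lower by -1.41 ± 0.210 (log2, adjusted p = 5.06e-05). Of the 5 tested receptor genes of the list 2 were higher and 3 lower in visceral endoderm than in epiblast, beside 37.7% and 36.4% of all genes.

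Of 11 tested transduction genes 5 were higher (45.5%) and 3 lower (27.3%) in visceral endoderm than in epiblast, beside 37.7% and 36.4% of all genes. Prkaca and Prkar1a, subunits of protein kinase A, which phosphorylates GLI proteins toward their repressor forms, were higher by 1.18 ± 0.0957 (adjusted p = 8.14e-08) and 0.81 ± 0.0873 (adjusted p = 1.50e-06). Gsk3b, a kinase acting after it, was higher by 0.57 ± 0.0679 (adjusted p = 3.81e-06). Csnk1a1, a casein kinase, and Spop, a ubiquitin ligase adaptor for GLI proteins, were lower by -0.44 ± 0.0616 (adjusted p = 2.09e-05) and -1.07 ± 0.0799 (adjusted p = 3.41e-08). Of 9 cilium genes 4 were higher (44.4%) and 2 lower (22.2%). Kif3a, a motor subunit of ciliary transport, had a log2 fold change of 0.01 ± 0.0905 (adjusted p = 0.943), Arl13b, a ciliary GTPase, was higher by 0.41 ± 0.0979 (adjusted p = 0.00167), and Tulp3, a ciliary adaptor, was lower by -0.81 ± 0.132 (adjusted p = 7.80e-05).

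Of 9 tested genes that are Hedgehog targets in other tissues, 1 was higher and 5 lower in visceral endoderm than in epiblast (all genes 37.7% and 36.4%), and 1 was higher and 7 lower than in TE (all genes 33.1% and 30.7%). In early PrE over epiblast 3 were higher and 4 lower (all genes 36.5% and 34.3%). Bmp4 was lower than in epiblast by -2.72 ± 0.275 (adjusted p = 7.92e-07), with 4.16 ± 0.753 CPM in visceral endoderm and 25.6 ± 9.10 in epiblast. Sfrp1, a secreted Wnt antagonist, was lower by -2.72 ± 0.229 (adjusted p = 1.22e-07) and the proto-oncogene Mycn by -1.13 ± 0.153 (adjusted p = 1.37e-05). Tgfb2, a growth factor gene, was higher in TE than in epiblast by 2.85 ± 0.180 (adjusted p = 2.08e-08). Ccnd2, a G1 cyclin gene, had -0.02 ± 0.309 in visceral endoderm over epiblast (adjusted p = 0.961). At low levels Foxf1 and Foxf2 went the other way. Foxf1 averaged 0.694 ± 0.398 CPM in visceral endoderm, 0.582 ± 0.334 in early PrE and 0.155 ± 0.138 in epiblast (SD, n = 3). Foxf2 averaged 0.802 ± 0.702, 2.60 ± 1.27 and 0.0420 ± 0.0383 CPM in the same order. All genes of this target list also answer to other pathways.

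For each member with enough signal, the genes with the most similar pattern were ranked by Pearson's r of log2(CPM + 1) over the 12 sums of state and library, which share libraries and depths, among genes of at least 5 CPM on average. Among the genes closest to Ihh were Hkdc1 (r = 0.996), Npl (0.995), Spns3 (0.995) and Myo6 (0.995). Hkdc1, a hexokinase domain gene, averaged 66.4 CPM in visceral endoderm, 38.7 in early PrE, 0.777 in TE and 0.662 in epiblast. Gli3 was closest to Rhobtb3 (r = 0.994), Satb1 (0.991) and Ssb (0.990), and Gli2 to Mcts2 (0.963) and Platr3 (0.960). Smo was closest to Ppp2r3a (0.966) and Zbtb7b (0.961), and Ptch1 to U2surp (0.946) and Vps36 (0.926). These values describe 12 sums and have no test.

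Between libraries of the same state the members were mostly alike within counting error. Ihh in visceral endoderm and early PrE differed beyond counting error in no pair of libraries. Beyond Ptch1 in TE, further pairs of tested members in the 4 states had a 95% interval that excluded a ratio of 1. Ihh in TE did so in all 3 pairs (Type II over Type I 0.430, 0.187 to 0.932, with 0 UMIs in Type III). Type III over Type I gave 0.141 for Gli1 in TE (0.0161 to 0.567) and 1.25 for Gli3 in TE (1.06 to 1.47). It gave 0.701 for Smo in epiblast (0.540 to 0.902), and in early PrE 0.635 for Ptch1 (0.414 to 0.943) and 0.748 for Smo (0.572 to 0.967). Type III over Type II excluded 1 for Gli1 and Gli3 in TE, for Smo in epiblast and for Gli2 in epiblast (1.85, 1.17 to 2.88). With 1 library each, these ratios are not differences of type.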

How the data were processed

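The authors deposited UMI counts per gene and barcode for 3 libraries. Per the file headers the counting tool was Cell Ranger 6.0.1, and the submitters' processing notes name mm10. The sources used here do not say how cells were called. From these counts, levels were computed as CPM over the barcodes of a state, with exact Poisson intervals at 95%. Sums hold 1025683 to 27523634 UMIs. The 7 members, the states and the gene lists were chosen with earlier results of these data known. No doublet caller was run; mixed and the deepest barcodes were left out as alternatives. edgeR 4.0.16 (quasi-likelihood test, TMM, library as block) was fitted to 11 sums of at least 20 barcodes, over genes with at least 10 UMIs in at least 3 sums, leaving 5 residual degrees of freedom; DESeq2 1.42.0 was an alternative. Nothing in the labels says that libraries are separate cultures, so p-values measure only the spread between these libraries. In simulated counts for visceral endoderm over epiblast (13812 genes), 83% of genes changed 2-fold and 19% of those changed 1.5-fold were recovered, with 4 false calls. The simulation had a shared mean profile for all states, a fixed spread other than that fitted, no library effect and few changed genes. Its recovery and false calls therefore do not carry over to these data. All members were named. Of the pathway list, a gene is named if among the 3 highest of its role or called in all 3 comparisons of visceral endoderm. Of the 46 listed symbols 1 was not matched. Foxf1, Foxf2, Hand1 and Vim, and Shh and Dhh, were named after their values were seen. Promoters are from RefSeq and matched 6 of 7 members. One of the genes with a pattern like that of Ihh is not reported here.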

Additional observations from a re-analysis of the deposited data

Results flagged for a closer look

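Hedgehog transcripts were also present in barcodes outside the comparisons. Barcodes with 1000 to under 10000 UMIs, which were too shallow to be used, held 452 Ihh UMIs, 391 Ptch1 UMIs, 536 Smo UMIs, 39 Gli1 UMIs, 25 Gli2 UMIs and 251 Gli3 UMIs over the 3 libraries, each above the 3 UMIs that a count of 0 allows. At 5000 to under 10000 UMIs and by the same state thresholds, Ihh stood at 38.1 CPM in 193 visceral endoderm barcodes (95% Poisson interval 28.2 to 50.3) and at 14.0 CPM in 240 early PrE barcodes (8.86 to 21.0). In TE it was 7.08 CPM and in epiblast 3.48 CPM, both above the deep barcodes of the same state. Ptch1 stood at 6.99 CPM in visceral endoderm, 7.90 in early PrE, 23.0 in TE and 15.3 in epiblast. At 1000 to under 5000 UMIs the groups placed by these thresholds were closer. Ihh stood there at 22.9 CPM in visceral endoderm (19.8 to 26.4), 18.8 in early PrE (14.2 to 24.5), 11.997 in TE, 8.66 in epiblast and 16.6 in unplaced barcodes. In barcodes of under 10000 UMIs 1 UMI of Gata6, Sox17 or Gata4 meets the early PrE threshold of 100 CPM. Under 5000 UMIs 1 Pou5f1 UMI likewise meets the epiblast threshold of 150 CPM. Placement can thus rest on 1 UMI, and no level of a state is drawn from these barcodes. The shallow barcodes were not tested.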

How the results depend on the processing

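Of 36 member fold changes between states 27 were called, 20 of them in every alternative that could be fitted, and no called one reversed. These counts include folds of Gli1 and Gli2, which passed the filter on low counts only through states in which they were higher. Such folds are a description with no test, and their calls do not measure stability. Ihh in endoderm over TE or epiblast was called in all 20 alternatives (log2 3.30 to 6.72, lowest with epiblast tested first and highest without Type I). Gli1 and Gli2 could not be tested in thinned sums, nor Gli1 without Type I or Type II. Below, values are log2 fold changes or counts, and no cause was tested. Shares without thinning and levels at other depths moved in 54 of 140 cases.

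Ihh in visceral endoderm over early PrE passed at 5000 UMIs (0.48), halved thresholds (0.77), without the deepest barcodes (0.40), without shared sequences (0.44), thinned (0.43), with every gene (0.39) and with the sum of 19 barcodes (0.46, added after seeing the data), and was 0.31 to 0.41 without 1 library, passing without Type III. Ihh in TE over epiblast, at most 2.00 CPM in both, was called in opposite directions with doubled thresholds (1.42, adjusted p = 0.0254) and with epiblast tested first (-2.30, adjusted p = 0.00238). It reversed with no call at 5000 UMIs (0.065), without the deepest barcodes (0.15), without shared sequences (0.18), thinned (0.67) and unscaled (0.23), and was -0.98 to 0.25 without 1 library. Ptch1 in visceral endoderm over epiblast was lost thinned (-0.39) and with no replicate block (-0.65); over early PrE it reversed with halved thresholds (-0.35). Ptch1 in TE over epiblast was -0.18 with doubled thresholds, passed halved (0.39) and unscaled (0.43), and was -0.30 to 0.28 without 1 library.

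Smo in early PrE over epiblast missed with halved thresholds (0.26), thinned (0.36), DESeq2 (0.29) and no block (0.32), and was 0.27 to 0.38 without 1 library, missing without Type I and without Type II. Smo in early PrE over TE passed at 5000 UMIs (-0.29), 20000 UMIs (-0.30), halved thresholds (-0.34), DESeq2 (-0.33), relative log expression factors (-0.31) and unscaled (-0.45), and was 0.35 thinned. Smo in visceral endoderm over TE passed without the deepest barcodes (0.28), without shared sequences (0.32) and thinned (0.42), and was 0.12 to 0.28 without 1 library, passing without Type III. Smo in visceral endoderm over early PrE missed with doubled thresholds (0.32) and thinned (0.066), and was 0.44 to 0.50 without 1 library, missing without Type I and without Type II; in TE over epiblast it was 0.0066 thinned. Gli1 in visceral endoderm over early PrE was 0.22 with doubled thresholds and passed with halved ones (-2.64, adjusted p = 0.0139). Gli1 in TE over epiblast was 0.42 with halved thresholds, 0.25 without the deepest barcodes, 0.26 without shared sequences, 0.071 with epiblast first, 0.24 unscaled and 0.24 without Type III. Without 1 library Gli2 over TE was -3.41 to -1.81 in visceral endoderm, missing without Type I. In early PrE it was -2.41 to -1.03, missing without Type I and without Type II. These Gli2 folds are a description, for the reason given above. Gli3 in visceral endoderm over early PrE was -0.65 with doubled thresholds and -1.46 to -1.27 without 1 library, missing without Type II.

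Counts of members moved as follows. In visceral endoderm over early PrE the higher count was 2 at 5000 UMIs, with halved thresholds, without the deepest barcodes, without shared sequences, with every gene and with the sum of 19 barcodes, and 0 with doubled thresholds; the lower count was 2 halved and 0 doubled. In early PrE over epiblast the higher count was 1 with halved thresholds, DESeq2, no block and thinned, and the lower count 2 thinned. In visceral endoderm over TE the higher count was 2 without the deepest barcodes, without shared sequences and thinned, and the lower count 2 thinned. Thinned, the lower count was 1 in visceral endoderm over epiblast and 2 in early PrE over TE, and TE over epiblast had 1 higher and 0 lower; with epiblast first it had 2 lower. Without 1 library the members were 1 to 2 higher in early PrE over epiblast, 1 to 2 higher and 2 to 4 lower in visceral endoderm over TE, 2 to 4 lower in early PrE over TE, and 0 to 2 higher and 0 to 1 lower in visceral endoderm over early PrE.

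Other pathway genes moved too. Visceral endoderm over early PrE had 5 higher and 11 lower with halved thresholds, 3 lower with epiblast first and with no block, and 1 higher thinned. Thinned, 9 were lower in visceral endoderm over epiblast, 8 higher in early PrE over epiblast, 7 higher in visceral endoderm over TE and 2 lower in TE over epiblast, where it was 5 without the deepest barcodes and 4 unscaled. Without 1 library, visceral endoderm over epiblast had 9 to 15 higher and 9 to 15 lower, over TE 7 to 12 higher, over early PrE 0 to 3 higher and 0 to 8 lower, and TE over epiblast 9 to 16 higher and 5 to 9 lower.

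Over all genes, halved thresholds called 4684 in visceral endoderm over early PrE. Thinned sums called 6452 in early PrE over epiblast, 5049 in early PrE over TE, 1615 in visceral endoderm over early PrE and 4910 in TE over epiblast. Without 1 library the calls were 6756 to 10254 in visceral endoderm over epiblast, 5259 to 9016 in visceral endoderm over TE, 204 to 3111 in visceral endoderm over early PrE and 5143 to 7584 in TE over epiblast. The lowest values came without Type II.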
